A study of Danio rerio with 12 samples.

Results

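Constitutive regions of moderate strength are stretches of zebrafish (Danio rerio) chromatin that were open in every library of the series without being among the strongest sites of every library. They were chosen by rank within each list, the peaks on chromosomes 1 to 25 being ordered by the deposited −log10 p-value, then by fold enrichment and position, and by merging the best 50000 peaks of all 12 lists. A merged region was kept if it was under 1000 bp wide, overlapped one of the best 50000 peaks in each list, and did not overlap one of the best 10000 in each. This gave 13637 members, 12.1% of 112288 merged regions, and they covered 6.76 Mb. The remaining regions present in the best 50000 of every list, 16955 in all, were 2860 narrow regions in the best 10000 of each list, called the strongest narrow regions here, and 458 regions of 1000 bp or more.

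Chromatin was profiled by ATAC-seq, in which a transposase cuts and tags DNA that is not wrapped in nucleosomes, in whole wild-type embryos freed of chorion and yolk. For 1 set of embryos, all-trans retinoic acid (atRA, 0.1 µM) or its solvent DMSO was added at 30% epiboly and collection was at 80% epiboly, late in gastrulation. The other sets received the same dose of atRA or DMSO from 80% epiboly and were collected either at 12 somites or 24 h after fertilization (24 hpf). Start or length of exposure thus differed between stages, and stage and exposure cannot be told apart where the atRA effect differs between stages. All 6 groups, atRA and DMSO at each of the 3 stages, consisted of 2 libraries, so 12 lists were available. A whole embryo mixes many cell types, so a change in the share of cells of a type and a change in openness per cell cannot be told apart. Nothing in the labels says whether the 2 libraries of a group came from separate clutches, so p-values measure only the spread between libraries, which may be technical.

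Retinoic acid is a derivative of vitamin A that binds nuclear receptors sitting on DNA, and in vertebrate embryos it helps to pattern the hindbrain, trunk and somites. Regions that stay open in all stages of a whole embryo are known in general to include promoters of widely used genes and sites bound by insulator proteins, whereas regions open in few stages are more often enhancers of single tissues. Genes and sequence motifs at the members were not analysed here, so the members are described by position, strength and summit.

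A rank of 1 marks the most significant peak of a list. The ranks chose the members, so they are given as a description with no test. Members were not all of middling rank, and the label holds for the 12 lists as a set and not for each of them. Of the 13637 members, 2268 (16.6%) were among the best 10000 peaks of no list, 1551 of 1 list and 937 of 11 lists, as the bar plot of lists with a strong peak shows. For those 937 members 1 library alone kept them out of the strongest narrow set. That library was 80% epiboly atRA replicate 1 for 186 of them, 12 somites DMSO replicate 1 for 125, and 12 somites atRA replicate 2 for 22, the fewest.

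**Figure D1:**
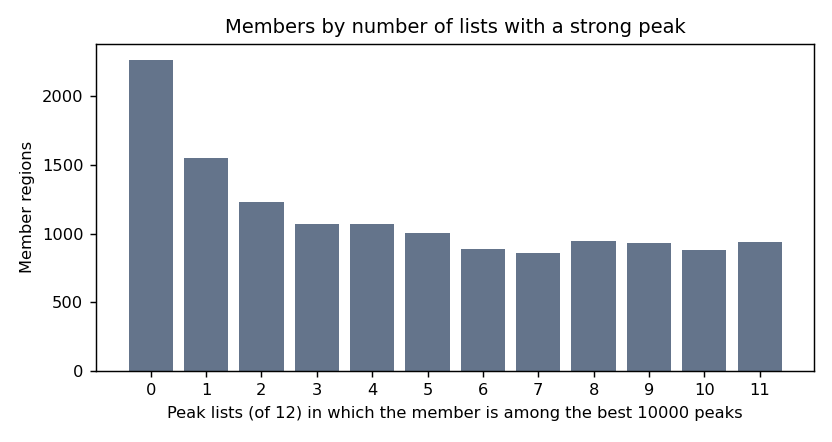
Number of member regions (vertical axis) by the number of peak lists, of 12, in which the member overlapped one of the best 10000 peaks (horizontal axis). The bar at 0 lists is the highest, with 2268 members, and 937 members fell short in a single list.

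At the lower edge of the definition, the member chr2:44346630-44346933 had a worst rank of 49997, and the excluded region chr19:19932696-19933029 a worst rank of 50002. At the upper edge, the member chr13:11630370-11630927 had a worst rank of 10006, while chr20:28398003-28398632, in the strongest set, had 9997. At the width limit, chr15:8313950-8314948 (999 bp) was a member and chr5:51448291-51449290 (1000 bp) was not. Coordinates are those of build GRCz10, named in the submitters' processing notes. Another 4666 narrow regions missed the best 50000 in exactly 1 list. In 936 of them that list was 12 somites DMSO replicate 1, and in 725 it was 80% epiboly atRA replicate 1. Only 80 of the 4666 had no peak at all in the list concerned.

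Lists held between 154354 and 439137 peaks. The summit pileup is the number of fragments stacked at the summit, recovered as a whole number from the fold enrichment and p-value that the authors deposited. Its median over members was 62 and 31 in 80% epiboly atRA replicates 1 and 2, against 78 in each 80% epiboly DMSO library. It was 47 and 44 in the 12 somites atRA libraries, against 21 and 36 in 12 somites DMSO. At 24 hpf it was 36 and 34 with atRA, against 37 and 46 with DMSO. The pileup therefore lay below DMSO at 80% epiboly and at 24 hpf and above DMSO at 12 somites, in both atRA libraries each time. Read totals are unknown. The most frequent background pileup of a list, a stand-in for depth, was 2.47 and 0.87 in 80% epiboly atRA against 3.18 and 3.28 in 80% epiboly DMSO. It was 1.60 and 1.44 in 12 somites atRA against 0.69 and 1.15 in 12 somites DMSO, and 2.03 and 1.98 in 24 hpf atRA against 1.39 and 2.03 in 24 hpf DMSO. Pileup and background moved the same way with atRA at the first 2 stages, and the part of depth in the pileups was not tested.

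The median fold enrichment of members over the caller's local background varied less. It was 11.8 and 11.1 in 80% epiboly atRA, against 11.2 and 11.1 in 80% epiboly DMSO. It was 11.8 and 11.9 in 12 somites atRA, against 9.59 and 11.6 in 12 somites DMSO. It was 8.60 and 8.40 in 24 hpf atRA, against 10.5 and 10.2 in 24 hpf DMSO. The 24 hpf atRA libraries had the lowest values of the 12. Peak names in both 24 hpf DMSO lists carry a word, nuevo, that no other list has. Whether those lists were made at another time or with other settings is not given in the sources used here. In each 24 hpf comparison of atRA with DMSO, such a difference and the treatment cannot be told apart. Members were weaker than the strongest narrow regions in each list, whose median fold lay between 12.1 and 16.5, a difference that the rule itself sets.

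Single members ranged from steady to highly variable. The ratio of the worst to the best rank over the 12 lists had a median of 5.43 (interquartile range 3.79 to 8.80), reached 2170, and was above 10 in 2779 members (20.4%), above 100 in 106 and under 2 in 85. Between 2 libraries, the median rank ratio of members averaged 1.45 over the 6 replicate pairs (1.28 to 1.61) and 1.52 over the 12 pairs of an atRA and a DMSO library of a stage (1.44 to 1.62). It averaged 1.74 over the 16 pairs of adjacent stages with the same treatment (1.65 to 1.88) and 1.88 over the 8 pairs of the first and last stage (1.79 to 2.07). Distances between treatments thus overlapped those between replicates, whereas each pair of stages lay further apart than each pair of replicates.

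The steadiest member was chr20:881861-882415. Its ranks were 32504 and 46212 in 80% epiboly atRA, 42294 and 31452 in 80% epiboly DMSO, 39447 and 39424 in 12 somites atRA, 36238 and 31971 in 12 somites DMSO, 40216 and 42844 in 24 hpf atRA, and 37638 and 45473 in 24 hpf DMSO. It was weak in all lists, and its worst rank was 1.47 times its best. Next came chr14:26372191-26372822, with a ratio of 1.55 and ranks of 12155 to 18855, and chr5:18509299-18510123, with a ratio of 1.56 and ranks of 24472 to 38290.

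The most variable member was chr13:48155166-48155748. Its ranks were 146 and 382 in 80% epiboly atRA, 12 and 175 in 80% epiboly DMSO, 25988 and 16697 in 12 somites atRA, 13135 and 13220 in 12 somites DMSO, 1905 and 7637 in 24 hpf atRA, and 5195 and 1899 in 24 hpf DMSO. It was among the very best sites of gastrulae, ordinary at 12 somites and intermediate at 24 hpf, with no overlap between the stages. Its fold enrichment was 20.5 and 20.8 in 80% epiboly atRA against 22.5 and 19.7 in 80% epiboly DMSO, 11.1 and 13.2 in 12 somites atRA against 10.5 and 12.6 in 12 somites DMSO, and 15.8 and 11.8 in 24 hpf atRA against 15.4 and 17.3 in 24 hpf DMSO. On the fold scale, 12 somites and 24 hpf overlapped.

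The second most variable, chr5:59680873-59681207, changed the other way. Its ranks were 43346 and 5058 in 80% epiboly atRA, 37348 and 49175 in 80% epiboly DMSO, 12942 and 16518 in 12 somites atRA, 3496 and 8690 in 12 somites DMSO, 334 and 26 in 24 hpf atRA, and 516 and 2271 in 24 hpf DMSO. Its 24 hpf libraries all ranked better than those of the other stages, and at 80% epiboly the atRA replicates lay far apart. The next, chr4:61790940-61791201, had ranks of 26402 and 1049 in 80% epiboly atRA and of 33293 and 39239 in 80% epiboly DMSO. At 12 somites its ranks were 3700 and 2435 with atRA and 24 and 2108 with DMSO, and at 24 hpf they were 4250 and 4942 with atRA and 4848 and 4128 with DMSO. The 80% epiboly DMSO libraries and 1 of the 80% epiboly atRA libraries placed it far below the other 9.

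**Figure D2:**
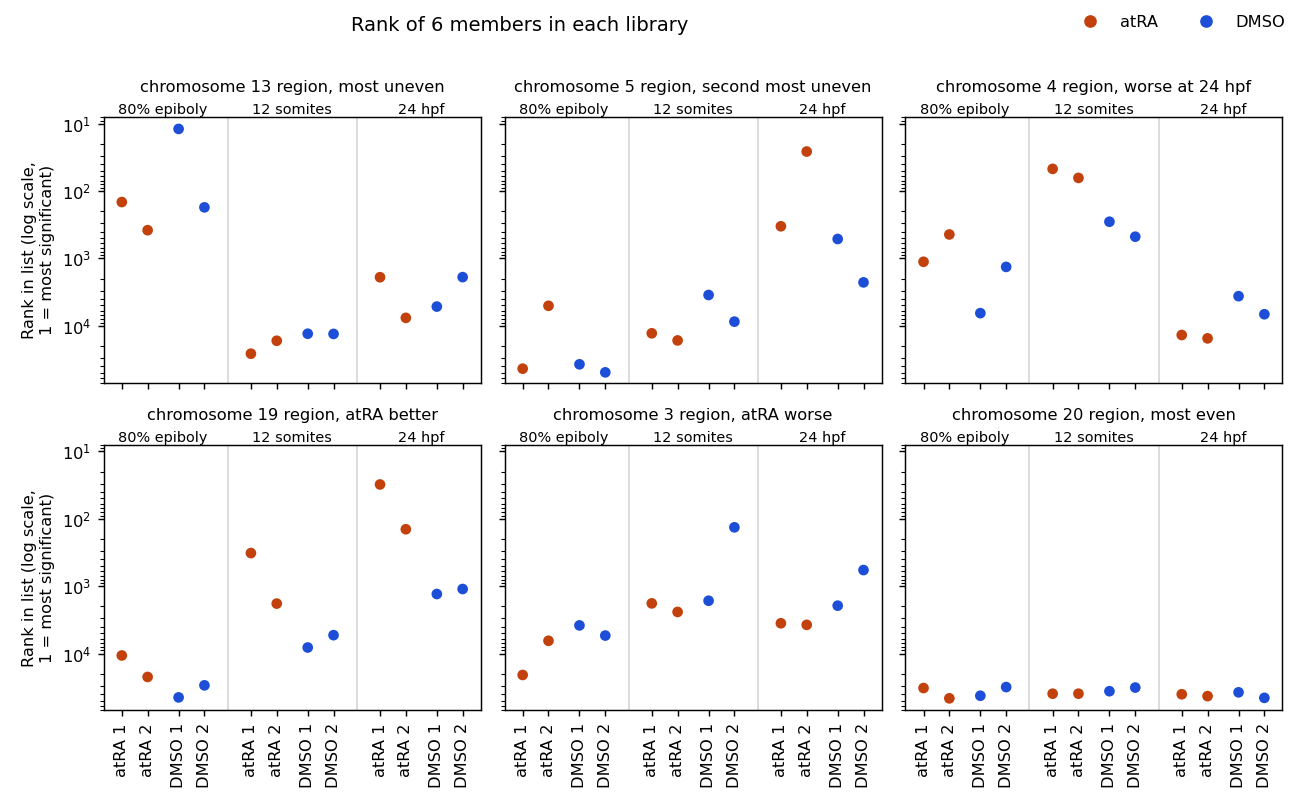
Rank of 6 members in each of the 12 libraries (vertical axis, log scale, 1 at the top being the most significant peak; horizontal axis, libraries by stage, with atRA to the left of DMSO). The chromosome 13 region was best at 80% epiboly with ranks of 12 to 382, the chromosome 5 region at 24 hpf, and the chromosome 20 region stayed between 31452 and 46212.

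The first comparison the design allows is that of atRA with DMSO within a stage. A member was counted as better or worse ranked when both atRA libraries lay on one side of both DMSO libraries. At 80% epiboly, 3384 members ranked better and 3175 worse with atRA, 24.8% and 23.3% of the members. Among all 16955 regions found in every list, most of them members, the shares were 25.5% and 22.6%. At 12 somites 2924 members ranked better and 2690 worse, against background shares of 21.6% and 19.5%. At 24 hpf 2351 ranked better and 2611 worse, against 17.3% and 19.3%. The counts lay near the background at each stage and are not results about the members. With 2 libraries against 2 the smallest two-sided p that an exact permutation test over samples within a stage allows is 0.333.

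The changes were small. The median rank ratio of the members so counted was between 1.67 and 1.93 in the 3 stages, and the share changed by over 4-fold was highest, 7.69%, among those that ranked worse with atRA at 80% epiboly. The balance of better and worse depended on the measure used for ranking. By p, 51.6%, 52.1% and 47.4% of the counted members ranked better with atRA at 80% epiboly, 12 somites and 24 hpf, and by fold enrichment 71.6%, 40% and 58.0% did.

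Few members moved the same way at all stages. With atRA, 146 members ranked better and 103 worse in all 3 stages without overlap, 1.07% and 0.755% of the members against background shares of 0.985% and 0.684%. Among the strongest narrow regions the shares were 0.594% and 0.42%. When ranked by fold, 205 members were so counted in all, of which 74 were shared with the 249 counted by p.

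Among these, chr19:43392853-43393327 had the largest mean ratio toward better ranks. Its ranks were 10685 and 22264 in atRA against 44760 and 29635 in DMSO at 80% epiboly, 323 and 1815 in atRA against 8142 and 5338 in DMSO at 12 somites, and 31 and 143 in atRA against 1309 and 1103 in DMSO at 24 hpf. Both treatments moved up the list with each stage, and atRA was ahead of DMSO at each, by a geometric mean of 7.16-fold in rank. Its fold enrichment was 16.2 and 10.7 in atRA against 10.3 and 11.9 in DMSO at 80% epiboly, 21.8 and 18.0 in atRA against 12.1 and 16.3 in DMSO at 12 somites, and 19.5 and 18.9 in atRA against 18.5 and 17.2 in DMSO at 24 hpf. By fold the treatments overlapped at 80% epiboly and were close at 24 hpf.

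Next came chr22:36493166-36493567, with a mean ratio of 5.94. Its ranks were 927 and 3308 in atRA against 28086 and 18211 in DMSO at 80% epiboly, 4550 and 2796 in atRA against 17730 and 16845 in DMSO at 12 somites, and 1350 and 2801 in atRA against 3764 and 11251 in DMSO at 24 hpf. Its fold enrichment at 80% epiboly was 23.4 and 19.0 in atRA, against 12.2 and 13.8 in DMSO. By fold its treatments did not overlap at 12 somites either, but they overlapped at 24 hpf. The gap in rank was widest at 80% epiboly and narrowest at 24 hpf. The third, chr13:46172913-46173357, had a mean ratio of 5.51, with ranks of 689 to 3601 over the 6 atRA libraries and of 3540 to 28246 over the 6 DMSO libraries. By fold its treatments overlapped at 80% epiboly and at 24 hpf.

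Toward worse ranks, chr3:62089015-62089350 had the largest mean ratio, 3.39. Its ranks were 20789 and 6467 in atRA against 3823 and 5409 in DMSO at 80% epiboly, 1802 and 2414 in atRA against 1646 and 134 in DMSO at 12 somites, and 3555 and 3753 in atRA against 1948 and 577 in DMSO at 24 hpf. The treatments came close at 12 somites, where 1802 and 1646 were neighbouring values, and 1 DMSO library carried much of the difference. By fold they overlapped at 80% epiboly and at 12 somites. The other 2 were chr6:49915580-49915936, with a mean ratio of 3.11, and chr3:40112926-40113432, with 3.05.

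The second comparison is between stages, with the 4 libraries of a stage pooled. At 12 somites 1607 members ranked better and 1060 worse than at 80% epiboly in all 4 against 4 libraries, and the background shares were 11.3% and 7.17%. At 24 hpf 1339 members ranked better and 1593 worse than at 12 somites, against background shares of 9.6% and 11.7%. Over the whole span, 2184 ranked better at 24 hpf than at 80% epiboly and 1879 worse, against 15.0% and 12.7%. The members' own shares were 11.8% and 7.77%, 9.82% and 11.7%, and 16.0% and 13.8% in the same order, close to the background. That background is made up mostly of members. Among the strongest narrow regions the shares were 8.88% and 4.62%, 7.83% and 12.0%, and 9.69% and 8.53% in the same order. By fold, 64.9% of the members counted between 24 hpf and 80% epiboly ranked better, against 53.8% by p, and the count between 24 hpf and 12 somites was 1839 in place of 2932. Ranked by the summed -log10 p of their peaks among the regions shared by all lists, the balance reversed in each pair of stages. Then 1154 ranked better and 1321 worse at 12 somites than at 80% epiboly. At 24 hpf 1429 ranked better and 1323 worse than at 12 somites, and 1820 better and 2018 worse than at 80% epiboly. This ranking differs from the main one both in the measure and in the set ranked. Which of them reversed the balance was not tested.

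Over all members, the pair medians of the rank ratio given above were higher between stages (1.65 to 2.07) than between treatments (1.44 to 1.62). Counts between stages require 4 libraries not to overlap 4 and those with atRA 2 not to overlap 2, so the ratios of counted members are not compared. Of the members counted between 24 hpf and 80% epiboly, 28.1% of the better ranked and 37.7% of the worse ranked changed by over 4-fold. Over the 3 stages, 120 members (0.88%) ranked best at 80% epiboly, then at 12 somites, then at 24 hpf with no overlap, and 76 (0.557%) in the reverse order. The shares among all regions found in every list were 0.749% and 0.513%, near those of the members, which make up most of these regions. The other 4 orders held 11 to 24 members each.

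Among members that ranked better at 12 somites than at 80% epiboly, chr9:55517060-55517445 had the largest ratio. Its ranks were 357 and 1171 with atRA and 764 and 1365 with DMSO at 12 somites, against 14771 and 37526 with atRA and 36929 and 45537 with DMSO at 80% epiboly. The worst 12 somites rank was 1365 and the best 80% epiboly rank 14771, and the mean ratio was 38.2. At 24 hpf it stayed between 1475 and 2613. It was followed by chr3:5980928-5981645 with a ratio of 37.4 and chr1:51371970-51372391 with 33.7.

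Toward worse ranks at 12 somites, chr13:48155166-48155748 above led with a mean ratio of 159. It was followed by chr24:4427989-4428546, whose ranks were 15570 and 10668 with atRA and 8186 and 12824 with DMSO at 12 somites, against 191 and 888 with atRA and 63 and 292 with DMSO at 80% epiboly. This region did not return to the strong sites at 24 hpf, where its ranks were 13548 to 26637, unlike the chromosome 13 region. The third was chr25:8500905-8501450, with a mean ratio of 40.3, ranks of 2336 to 10144 at 12 somites, and ranks of 41 to 414 at 80% epiboly.

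At 24 hpf against 12 somites, chr5:59680873-59681207 above had the largest ratio toward better ranks, 28.3. The next was chr9:25109540-25110049, with ranks of 942 and 156 with atRA and 233 and 67 with DMSO at 24 hpf, against 4841 and 3552 with atRA and 10675 and 6509 with DMSO at 12 somites. Its groups did not overlap, and its 80% epiboly ranks of 2376 to 12620 resembled those at 12 somites. The third, chr23:24468101-24468464, had ranks of 183 to 325 at 24 hpf and of 3206 to 10661 at 12 somites.

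Toward worse ranks at 24 hpf, chr4:29209653-29210124 had the largest ratio, 59.6. Its ranks were 13720 and 15387 with atRA and 3640 and 6749 with DMSO at 24 hpf, against 47 and 64 with atRA and 286 and 477 with DMSO at 12 somites. At 80% epiboly they were 1124 and 442 with atRA, against 6500 and 1339 with DMSO. The atRA libraries therefore ranked it better than DMSO at the first 2 stages and worse at the last. The other 2 were chr3:11443829-11444208, with ranks of 24949 to 44128 at 24 hpf and 414 to 1940 at 12 somites, and chr13:47529706-47530449, with ranks of 2871 to 18746 at 24 hpf and 52 to 924 at 12 somites.

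Members that follow each other on a chromosome mostly moved the same way between 12 somites and 24 hpf. From 1 kb upward the share was highest among the pairs furthest apart. Among pairs of neighbouring members that both counted as changed at 24 hpf against 12 somites, 80 of 103 pairs 1 to 10 kb apart moved the same way (77.7%), as did 186 of 223 pairs 10 to 50 kb apart (83.4%), 221 of 267 pairs 50 to 200 kb apart (82.8%) and 90 of 101 pairs further apart (89.1%). Under 1 kb apart, 14 of 15 pairs moved the same way. For atRA against DMSO at 80% epiboly the shares in the same 4 distance classes were 65.3%, 66.7%, 63.0% and 63.9%. At 12 somites they were 59.7%, 60.3%, 61.7% and 59.3%, and at 24 hpf 55.6%, 55.1%, 53.0% and 51.6%. For 12 somites against 80% epiboly the shares were 55.6%, 65.3%, 58.1% and 48.4%, and for 24 hpf against 80% epiboly 63.2%, 64.3%, 61.5% and 60.0%. Of the counted members, 45.7% ranked better at 24 hpf than at 12 somites, and 47.4% with atRA at 24 hpf. The atRA shares at 24 hpf thus lay little above an even split. Neighbours shared the direction most often between 12 somites and 24 hpf, and among the atRA comparisons at 80% epiboly. Other regions were not examined, so whether this is particular to the members was not tested.

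Over all 13612 neighbouring pairs, the log2 rank ratios of 24 hpf to 12 somites correlated with Pearson's r = 0.316. The r was 0.213 between members 10 places apart (median distance 0.866 Mb) and 0.094 between members 50 places apart (4.75 Mb), so it was lower at greater distance. For atRA against DMSO neighbours correlated with r = 0.195 (80% epiboly), 0.123 (12 somites) and 0.037 (24 hpf). For a replicate against the other of its group, neighbours correlated with r between -0.001 and 0.029 in 5 groups and 0.142 in 80% epiboly atRA. These are correlations across sites, which share libraries and are not independent replicates, and they are given as a description.

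The shared direction followed position on the chromosome. Each member was placed by its distance from the nearer chromosome end in percent of chromosome length, taking the last merged region as the end. At 24 hpf against 12 somites, 157 of 740 counted members in the outer 10% ranked better (21.2%), whereas 472 of 607 within the central class, 40 to 50% from the end, did (77.8%). Among the strongest narrow regions 25 of 175 in the outer class (14.3%) and 69 of 85 in the central class (81.2%) did. The split was thus not particular to the members. The median log2 rank ratio of members, 12 somites over 24 hpf so that a positive value is a better rank at 24 hpf, was -0.34, -0.17, -0.04, 0.07 and 0.32 in the 5 classes from the end to the centre. It was higher in each class nearer the centre, over all members of a class and not over the counted ones alone.

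The gradient was present in both treatments. The outer minus the central value at 24 hpf against 12 somites was -0.66 over all libraries, -0.55 among atRA libraries alone and -0.78 among DMSO libraries alone. The spread of the same difference between replicates of a group was 0.09 (SD over 6 groups). Ranked by fold enrichment the difference kept its sign but was -0.233, and ranked by the summed -log10 p of each region among the regions shared by all lists it was -0.366. The size of the gradient thus depended on the measure.

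The outer 10% held 3239 members and the central class 2675. Their median ranks in 80% epiboly atRA were 13000 and 11700 in the outer class and 16600 and 13100 in the central class. In 80% epiboly DMSO they were 15400 and 15300 in the outer class and 12600 and 13100 in the central class. The ratio of outer to central median rank was thus 0.783 and 0.893 in 80% epiboly atRA, against 1.22 and 1.17 in 80% epiboly DMSO. Members near chromosome ends ranked better than central ones in both atRA libraries and worse in both DMSO libraries of that stage. The change of sign held for rank by p and not for fold. Median fold enrichment was lower in the outer than in the central class with atRA (11.2 against 12.0 and 10.8 against 11.1). It was also lower with DMSO (10.6 against 11.5 and 10.6 against 11.3). In the ratio of outer to central median rank, the 80% epiboly atRA libraries lay nearer to the 12 somites libraries, described next, than to the 80% epiboly DMSO libraries. In rank over all members they did not: the median rank ratio of 80% epiboly atRA replicate 1 was 1.53 and 1.57 to the 80% epiboly DMSO libraries and 1.71 to 1.79 to the 12 somites libraries, and that of replicate 2 was 1.60 and 1.62 and 1.66 to 1.74. Whether the labels of these libraries hold was not tested further.

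At 12 somites the ratio was 0.831 and 0.864 with atRA, against 0.676 and 0.724 with DMSO. Outer members ranked better than central ones in all 4 libraries, most so in DMSO. At 24 hpf it was 1.23 and 1.24 with atRA, against 1.18 and 1.28 with DMSO. Outer members ranked worse in all 4 and the treatments overlapped.

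**Figure D3:**
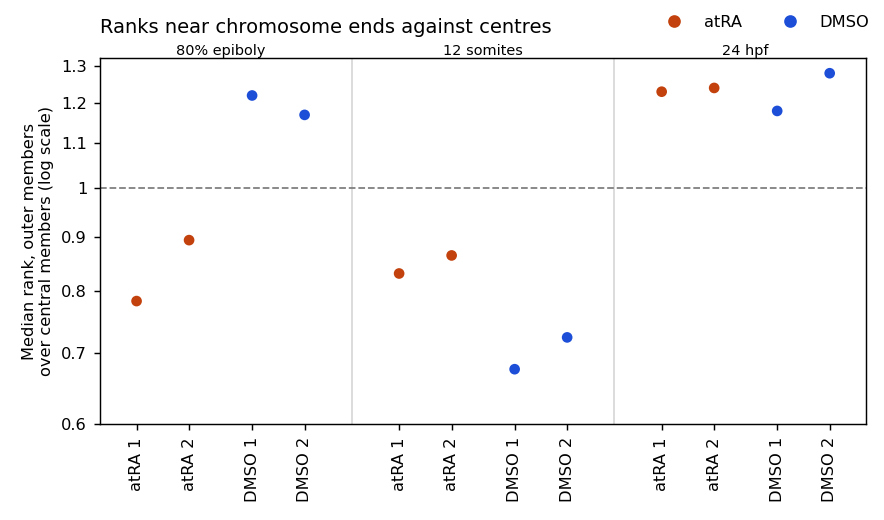
Median rank of members in the outer 10% of chromosomes divided by that of members in the central class, 40 to 50% of chromosome length from the end (vertical axis, log scale, values under 1 meaning better ranks near the ends), in each library by stage and treatment. The 80% epiboly atRA libraries lay at 0.783 and 0.893 and the 80% epiboly DMSO libraries at 1.22 and 1.17, while all 12 somites libraries lay under 1 and all 24 hpf libraries above 1. By median fold enrichment, outer members were weaker than central ones in all but the 12 somites DMSO libraries.

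For atRA against DMSO the outer minus central difference in the log2 rank ratio had values of 0.50 (80% epiboly), -0.31 (12 somites) and -0.03 (24 hpf). The values at the first 2 stages had opposite signs. By fold the 80% epiboly value was 0.179, and by summed -log10 p the values at 80% epiboly and 12 somites were 0.274 and -0.164. Without 80% epiboly atRA replicate 1 or 2 the 80% epiboly difference was 0.41 or 0.58. Of the counted members at 80% epiboly, 69.9% of 1590 in the outer class and 33.9% of 1323 in the central class ranked better with atRA. Among the strongest narrow regions 71.3% of 373 and 39.3% of 206 did.

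Between 12 somites and 80% epiboly the difference was 0.34 over all libraries, 0.71 among DMSO libraries and -0.04 among atRA libraries. By summed -log10 p it was 0.197, and without 80% epiboly atRA replicate 1 it was 0.458. Between 24 hpf and 80% epiboly it was -0.32 over all libraries, -0.06 among DMSO libraries and -0.60 among atRA libraries, and it changed sign to 0.17 when peaks were ranked by fold. These comparisons share libraries with those above and are given as their own values.

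**Figure D4:**
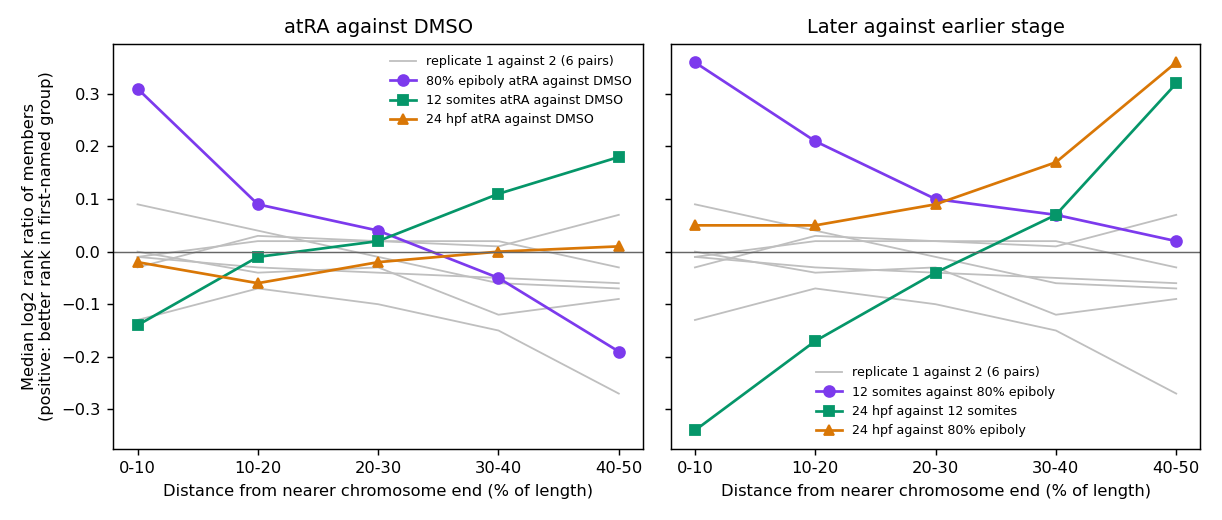
Median log2 rank ratio of members (vertical axis, positive values meaning a better rank in the first-named group) in 5 classes of distance from the nearer chromosome end (horizontal axis, % of chromosome length), for atRA against DMSO at each stage (left) and for pairs of stages (right), with the 6 comparisons of replicate 1 with replicate 2 in grey. The line for 24 hpf against 12 somites runs between -0.34 at the ends and 0.32 in the centre, and that for 80% epiboly atRA against DMSO between 0.31 and -0.19.

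The gradient was not particular to the members. The strongest narrow regions had outer minus central differences of -0.92 at 24 hpf against 12 somites, 0.59 for atRA against DMSO at 80% epiboly and -0.37 for atRA against DMSO at 12 somites. The share of the best 50000 peaks lying in the outer 10% also moved, at 25.5% and 25.1% in 80% epiboly atRA against 21.8% and 22% in 80% epiboly DMSO. It was 24.6% in each 12 somites atRA library against 26.4% and 25.8% in 12 somites DMSO, and 22.1% and 21.9% in 24 hpf atRA against 22.1% and 21.6% in 24 hpf DMSO. Base composition, fragment length and copy number along the chromosomes were not analysed here, and their part in the gradient was not tested.

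Over windows of 5 Mb, the median rank of members separated all 24 hpf libraries from all 12 somites libraries in 52.2% of the 249 windows with 20 or more members. All 24 hpf libraries ranked better in 53 windows and worse in 77. The windows were computed from members alone, with no share over all regions beside them. Whether these counts are particular to the members was not tested. At the start of chromosome 17, from 0 to 5 Mb, the 38 members had median ranks of 13434 and 14269 with atRA and 10120 and 13594 with DMSO at 24 hpf, against 5934 and 4904 with atRA and 3398 and 4268 with DMSO at 12 somites. This window had the lowest median log2 rank ratio, -1.12. On chromosome 23, from 20 to 25 Mb, the 41 members had median ranks of 5590 and 5957 with atRA and 5827 and 6763 with DMSO at 24 hpf, against 16802 and 14492 with atRA and 21352 and 20210 with DMSO at 12 somites. This window had the highest ratio, 1.49.

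Members were spread over all 25 chromosomes, with 10.2 per Mb in the genome as a whole. Chromosome 4 was the exception, with 4.20 per Mb and members making up 8.84% of its merged regions, compared with 11% to 14% on the other chromosomes. Its long arm in zebrafish is known to be rich in heterochromatin and repeats. In the 8 windows of 5 Mb between 30 and 70 Mb of chromosome 4 there were 0 to 3 members each, of 58 to 88 merged regions. Read mapping in repeats could not be examined, and its part was not tested. A full window held a median of 50 members, and the densest, the first 5 Mb of chromosome 21, held 114.

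Members lay nearer to other open regions than regions missing from some list did, in medians given as a description. The nearest other merged region was a median of 2710 bp from a member, and 3600 bp from a region not in every list. The nearest other region present in every list was 17500 bp from a member, against 25300 bp from a region not in every list. Within 1 kb, 26.3% of members and 18.4% of regions not in every list had another merged region. The strongest narrow regions resembled the members in part, so this nearness was not particular to the members. Of them, 26.6% had another merged region within 1 kb, and the nearest other region present in every list was a median of 18100 bp away. Their nearest other merged region was a median of 3360 bp away, further than that of members. The nearest strongest narrow region was a median of 125000 bp from a member, and 1.24% of members lay within 1 kb of one.

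Most members were single peaks. The merged width had a median of 465 bp (interquartile range 370 to 592 bp), and the median width of the best peak in a single list ran between 273 bp in 12 somites DMSO replicate 1 and 407 bp in 80% epiboly DMSO replicate 1. Peaks were counted among the best 50000 of each list, and weaker peaks were left out. By that count, 12575 members (92.2%) had exactly 1 peak in each of the 12 lists, and 5 members had 2 or more in each. Between 0.88% (80% epiboly DMSO replicate 1) and 3.60% (12 somites DMSO replicate 1) of members had several peaks in a given list. Where a list split a member, adjacent summits were a median of 353 bp apart (interquartile range 293 to 456 bp), and 231 of 3614 gaps (6.39%) lay between 150 and 250 bp.

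The position of the summit, the point of highest pileup, was not used to choose the members, so it was tested. In a region with several peaks, the summit was that of the best-ranked peak. There the tested position depends on the ranks, which the rule used. Among the best 50000 peaks of a list, only regions with 1 peak in every list are free of this. Weaker peaks were not counted. Each region named below for a summit shift had 2 peaks in at least 1 list, so its adjusted p is not free of the ranks. The range of summit positions over the 12 libraries had a median of 73 bp in members and 59 bp in the strongest narrow regions. It was within 50 bp in 22.5% of members and 38.4% of the strongest, and above 200 bp in 7.47% of members and 1.15% of the strongest. Summits were compared with limma over the 16497 narrow regions present in every list, with 1 mean for each of the 6 groups and Benjamini-Hochberg adjustment over all of them.

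Summits rarely moved with atRA. Averaged over the stages, 43 members shifted at an adjusted p under 0.05, and 0.279% of all regions tested did. Within a stage, 54 members shifted at 80% epiboly (background 0.352%), 18 at 12 somites (0.121%) and 31 at 24 hpf (0.212%). The members called were 0.315%, 0.396%, 0.132% and 0.227% of all members, close to the background. That background is made up mostly of members, so closeness to it is partly built in. Of the 2860 strongest narrow regions, 3 were called over the stages, 4 at 80% epiboly, 2 at 12 somites and 4 at 24 hpf. The median absolute shift over all members was 9.0 bp over the stages and 13 to 13.5 bp within one. Contrasts between stages average 4 libraries against 4 and those with atRA within a stage 2 against 2. The counts are therefore not compared, and whether more summits moved between stages was not tested. At 12 somites against 80% epiboly, 148 members were called (1.09% of members, background 0.958%), and at 24 hpf against 12 somites 55 were (0.403%, background 0.364%). Of the strongest narrow regions, 10 and 5 were called in these comparisons. The median absolute shift over all members was 13 bp in the earlier pair of stages and 12 bp in the later pair.

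Members with several peaks, counted among the best 50000 of a list, made up a larger share of the called shifts than of all members. Of the members called, 69.8% for atRA over the stages, 37.0%, 55.6% and 25.8% for atRA at 80% epiboly, 12 somites and 24 hpf, and 31.1% and 52.7% for the earlier and later pair of stages had 2 or more peaks in some list, compared with 7.79% of all members. The called members with 1 peak in every list numbered 13 for atRA over the stages, 34, 8 and 23 within stages and 102 and 26 between stages. A separate fit of the regions with 1 peak in every list called 2, then 24, 5 and 9, and then 84 and 16 members, and why it called fewer was not tested. Counts also rested on single libraries. Without 12 somites DMSO replicate 2 the count with atRA at 12 somites was 152, and without 80% epiboly atRA replicate 1 that at 80% epiboly was 184. The other counts without single libraries are given with the effects of the processing.

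The largest shift between stages was in chr6:59447551-59448539, a region of 989 bp. Its summits lay 808 and 808 bp from the region's start with atRA and 770 and 804 bp with DMSO at 12 somites, against 127 and 118 bp with atRA and 118 and 118 bp with DMSO at 80% epiboly. The best peak was at the left end in all gastrula libraries and at the right end in all 12 somites libraries, a shift of 677.2 ± 8.77 bp (SE; limma, adjusted p = 1.29e-08). At 24 hpf it stayed on the right, at 792 to 809 bp. Among its best 50000 peaks, each list other than that of 80% epiboly DMSO replicate 2 held 2 in this region, so the stronger of the pair changed.

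In chr9:55538474-55539414 the summits were at 826 and 828 bp with atRA and 828 and 821 bp with DMSO at 12 somites, against 245 and 255 bp with atRA and 246 and 255 bp with DMSO at 80% epiboly. The shift was 575.5 ± 6.05 bp (SE; limma, adjusted p = 4.31e-09), and 24 hpf summits stayed at 821 to 838 bp. This region lies on the same chromosome as chr9:55517060-55517445, the member that ranked much better at 12 somites. The gap between them is close to the median from a member to its nearest other member, 22200 bp. It is thus ordinary, and a link was not tested.

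At 24 hpf against 12 somites the 2 largest called shifts returned to an earlier position or passed to another. In chr2:37348735-37349708 the summits were at 733 and 646 bp with atRA and 730 and 789 bp with DMSO at 24 hpf, against 208 and 222 bp with atRA and 229 and 216 bp with DMSO at 12 somites. At 80% epiboly they were at 783 to 789 bp, so 12 somites stood apart from the stages on both sides of it. The shift was 505.8 ± 19.9 bp (limma, adjusted p = 2.96e-05). In chr3:24848789-24849693 the 24 hpf summits were at 742 to 754 bp and the 12 somites summits at 134 to 214 bp, a shift of 570.0 ± 49.2 bp (limma, adjusted p = 0.00218).

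For each named shift with atRA, the treatments stood far apart at 1 stage. In chr5:43878411-43879362 the summits were at 180 and 232 bp with atRA against 752 and 761 bp with DMSO at 80% epiboly, a shift of -550.5 ± 43.1 bp (limma, adjusted p = 0.00172). At both later stages all libraries lay at 141 to 295 bp, on the side of the 80% epiboly atRA libraries. In chr7:33353498-33354456 the 80% epiboly summits were at 702 and 708 bp with atRA against 175 and 168 bp with DMSO, a shift of 533.5 ± 26.9 bp (limma, adjusted p = 0.000155), and all later libraries lay at 634 to 760 bp. In both regions the gastrulae exposed to atRA had the summit position of the later stages.

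At 12 somites, chr18:38609409-38610244 had summits at 668 and 659 bp with atRA against 215 and 216 bp with DMSO (shift 448.0 ± 25.2 bp; limma, adjusted p = 0.000496). The 80% epiboly summits were at 561 to 662 bp and the 24 hpf ones at 146 to 205 bp, so the 12 somites atRA libraries stood with the earlier stage. In chr21:26357760-26358440 the 12 somites summits were at 168 and 178 bp with atRA against 551 and 554 bp with DMSO (shift -379.5 ± 23.5 bp; limma, adjusted p = 0.000873). Here too the atRA libraries stood with 80% epiboly, at 173 to 249 bp, and the DMSO libraries with 24 hpf, at 551 to 562 bp.

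At 24 hpf, chr5:68943803-68944718 had summits at 106 and 144 bp with atRA against 735 and 753 bp with DMSO (shift -619.0 ± 16.3 bp; limma, adjusted p = 7.75e-06). In all libraries of the earlier stages the summit was at 695 to 749 bp, so the 24 hpf atRA libraries stood alone. In chr14:34717893-34718736 the 24 hpf summits were at 145 and 170 bp with atRA against 661 and 706 bp with DMSO (shift -526.0 ± 20.6 bp; limma, adjusted p = 5.35e-05), and all earlier libraries lay at 109 to 173 bp. In this region the 24 hpf DMSO libraries stood alone. The shift with atRA differed between 12 somites and 80% epiboly in 45 members by the interaction term in limma at an adjusted p under 0.05 (0.33% of members, background 0.285%). It differed between 24 hpf and 80% epiboly in 41 (0.301%, background 0.279%) and between 24 hpf and 12 somites in 35 (0.257%, background 0.224%). These shares lay near a background made up mostly of members. Averaged over stages, the largest called shifts were those of the chromosome 5 regions above, at -216.7 ± 9.44 bp (limma, adjusted p = 0.000179) and -184.5 ± 24.9 bp (limma, adjusted p = 0.0381), and each came from 1 stage.

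**Figure D5:**
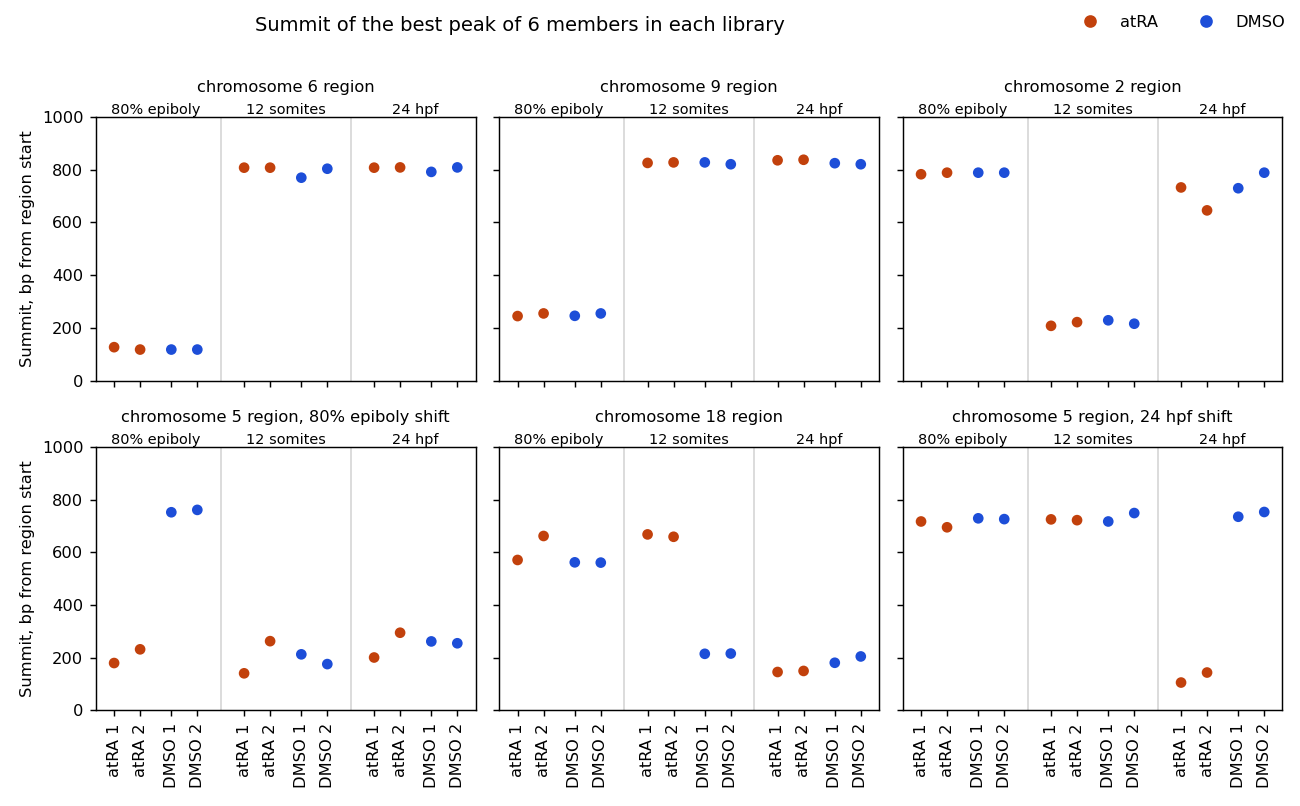
Position of the summit of the best peak, in bp from the start of the region (vertical axis), in each library by stage and treatment, for 6 members with called shifts. The chromosome 6 and 9 regions changed position between 80% epiboly and 12 somites in all libraries, the chromosome 2 region only at 12 somites, and the chromosome 5 and 18 regions differed between atRA and DMSO at a single stage.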

How the data were processed

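The submitters' processing notes name Bowtie2, SAMtools, MACS2 and the build GRCz10, with no role, version or settings, and 1 peak list was deposited for each of the 12 libraries. Each list holds the authors' deposited fold enrichment (a ratio to local background), −log10 p-values, −log10 q-values and summits, which belong to the authors' own peaks, beside a score, which was not used. Read totals are not given. Pileups were recovered from fold and p as whole numbers for 100% of the peaks, with 1 added to pileup and to background in the fold, and p read from a Poisson distribution (tolerance 0.001 in −log10 p).

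Ranks, merging (1 bp overlap) and positions were computed with Python 3.11.15, numpy 2.4.6 and pandas 2.3.3. Ranks chose the members and were not tested. Summits were tested with limma 3.58.1 in R 4.3.3 (robust empirical Bayes), and the procedure was tested on simulated data. The simulated spread was normal, so the simulation says nothing about jumps between the peaks of a region. Summit deviations of libraries with the same replicate number correlated between -0.0639 and 0.0608, so no pairing by number was seen in summits. Pairing in ranks was not tested, and summits alone cannot show whether libraries shared a clutch or batch. Named regions were the 3 with the most even and the most uneven ranks, the 3 with the largest mean rank ratio per direction for atRA in all stages and for adjacent stages, the 2 largest called summit shifts per contrast, and those nearest each threshold. The members, lists and rules were chosen with earlier results of these data known. The alternatives were other limits on rank, width, q and overlap, ranking by fold or summed −log10 p, other summit choices, a block for replicate number, and omission of single libraries. The gradient along chromosomes was added after seeing the data. Genes, promoters, motifs and sequences were not analysed here, since no genome of the build was used.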

Additional observations from a re-analysis of the deposited data

Results flagged for a closer look

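The direction of the atRA effect on several library medians of the members was opposite at different stages, with both atRA libraries on one side of both DMSO libraries each time. None of these differences was tested, and the stages also differed in the start or length of exposure. The ratio of atRA to DMSO in median pileup had values of 0.562 (80% epiboly), 1.65 (12 somites) and 0.848 (24 hpf), so that the 80% epiboly ratio was 0.34 of that at 12 somites, and the 12 somites ratio 1.95 times that at 24 hpf. The ratio in median peak width was 0.871 at 80% epiboly and 1.16 at 12 somites, a quotient of 0.748. The ratio in median fold was 1.12 at 12 somites and 0.824 at 24 hpf, a quotient of 1.36. The ratio in the percentage of members among the best 10000 peaks was 1.04 at 12 somites and 0.97 at 24 hpf, a quotient of 1.07, and the rule uses this measure. The ratio in the percentage of members with 2 or more peaks was 1.52 at 80% epiboly and 0.702 at 12 somites, a quotient of 2.17. The background pileup of the lists moved with the median pileup at 80% epiboly and 12 somites, and its part in the other measures was not tested.

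The ratio of outer to central rank was 0.70 times the DMSO value with atRA at 80% epiboly and 1.21 times at 12 somites, a quotient of 0.578. The atRA libraries of both stages lay between the DMSO libraries of 80% epiboly and those of 12 somites.

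The ranks of 5 named members had opposite directions with atRA at 2 stages, also untested. Members named for their ranks were screened, and these were picked as extremes. The share of all regions with opposite directions was not computed, so whether 5 is more than usual is not known. For chr5:59680873-59681207 the ratio of atRA to DMSO rank was 2.65 at 12 somites and 0.0861 at 24 hpf, a quotient of 30.8, where a ratio under 1 is a better rank with atRA. For chr4:61790940-61791201 it was 0.146 at 80% epiboly and 13.3 at 12 somites (quotient 0.0109). For chr23:24468101-24468464 the ratios were 1.5 (80% epiboly), 0.488 (12 somites) and 0.718 (24 hpf) (quotients of the first to the others 3.08 and 2.09). For chr4:29209653-29210124 the ratios were 0.239 (80% epiboly), 0.148 (12 somites) and 2.93 (24 hpf) (quotients to the last 0.0815 and 0.0507). For chr3:11443829-11444208 the ratios were 0.401 (80% epiboly), 3.27 (12 somites) and 1.57 (24 hpf) (quotients of the first to the others 0.122 and 0.255).

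The summit shift with atRA differed between stages in these named members by the interaction term in limma. Each of them had 2 peaks in at least 1 list, where the summit depends on the ranks. In chr5:68943803-68944718 the 24 hpf effect differed by -597.5 bp relative to 80% epiboly (limma, adjusted p = 7.26e-05) and by -609.5 bp relative to 12 somites (limma, adjusted p = 0.000125). In chr14:34717893-34718736 it differed by -530.5 bp (limma, adjusted p = 0.000301) and -509.0 bp (limma, adjusted p = 0.000719). In chr5:43878411-43879362 the 12 somites and 24 hpf effects differed relative to 80% epiboly by 558.0 and 540.0 bp (limma, adjusted p = 0.0126 for each). In chr7:33353498-33354456 they differed by -541.0 and -506.0 bp (limma, adjusted p = 0.00121 and 0.00183). In chr18:38609409-38610244 the 12 somites effect differed by 393.0 bp relative to 80% epiboly (limma, adjusted p = 0.00464) and the 24 hpf effect by -493.0 bp relative to 12 somites (limma, adjusted p = 0.00233). In chr21:26357760-26358440 the differences were -364.5 bp (limma, adjusted p = 0.00464) and 386.0 bp (limma, adjusted p = 0.00554).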

How the results depend on the processing

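The number of members lay between 10019 and 16774 under other limits on rank, q and overlap, and was 7903 with a width limit of 500 bp and 13745 to 14446 without single libraries. Ranking by fold gave 12580 members, which covered 72.9% of the 13637. Leaving out 1 library gave 8971 to 11228 members with ranks that did not overlap for atRA against DMSO at 80% epiboly, 9119 to 10408 at 12 somites, 9103 to 9409 at 24 hpf and 331 to 487 in all 3 stages. These rises follow from the smaller number of libraries that must not overlap. Between stages the ranges were 2957 to 4072 for 12 somites against 80% epiboly, 3477 to 3756 for 24 hpf against 12 somites and 4447 to 5470 for 24 hpf against 80% epiboly. Ranking by fold gave 1839 for 24 hpf against 12 somites. With the replicate block, summit calls numbered 26 over stages, 31 at 80% epiboly, 15 at 12 somites and 14 at 24 hpf for atRA, and 115 and 41 between stages. With 1 peak in every list they numbered 2, 24, 5, 9, 84 and 16. Without single libraries they ranged over 34 to 89, 37 to 184, 16 to 152, 12 to 87, 113 to 253 and 48 to 149, in the same order; where a group keeps 1 library, it is assumed to vary like the others. The largest rises came without 12 somites DMSO replicate 2 (89 over stages, 152 at 12 somites, 253 and 149 between stages), without 80% epiboly atRA replicate 1 (87, 184 at 80% epiboly, 234) and without 24 hpf atRA replicate 1 or 2 (72 or 83 over stages, 75 or 87 at 24 hpf, 115 or 119 at 24 hpf against 12 somites), and the cause was not tested. Smaller ones came at 12 somites without atRA replicate 1 or 2 or DMSO replicate 1 (29, 28 and 39) and at 24 hpf against 12 somites without 24 hpf DMSO replicate 2 (93). Without 80% epiboly DMSO replicate 1 or 2 the 24 hpf count was 12.

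The outer minus central log2 difference ranked by fold was 0.179 for atRA at 80% epiboly, 0.46 for 12 somites against 80% epiboly, -0.233 for 24 hpf against 12 somites and 0.17, a reversal, for 24 hpf against 80% epiboly. By summed −log10 p it was 0.274 and -0.164 for atRA at 80% epiboly and 12 somites, and 0.197, -0.366 and -0.169 for the pairs of stages. Without single libraries it was 0.249 to 0.458 for 12 somites against 80% epiboly and -0.379 to -0.226 for 24 hpf against 80% epiboly; the cause was not tested. Shares of members near gene starts or with an insulator motif were not run. The depth of the lists is unknown, which limits any statement on weak peaks.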
